A study of Homo sapiens with 3 samples.

Results

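The genes described here encode the proteins that hold epithelial cells to each other and close the space between them. They are the 9 genes CDH1, CDH17, CLDN1, CLDN3, CLDN4, OCLN, TJP1, EPCAM and F11R. FOXA2 peaks were assigned to them by position: a peak belongs to a gene when its midpoint lies in the gene or within 50 kb on either side. CLDN3 and CLDN4 are neighbours on chromosome 7 and share an interval, so the 9 genes fall in 8 intervals of 1332 kb in all. The intervals held 83 of the 63949 peaks of replicate 1 and 41 of the 26907 peaks of replicate 2. A site called in both lists, with at least 1 bp in common, is termed a shared site; 38 of the 24345 shared sites lay in the intervals. In the whole lists, 38.1% of replicate 1 peaks and 90.5% of replicate 2 peaks were shared.

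The data are 2 replicate chromatin immunoprecipitations with a FOXA2 antibody (Santa-Cruz sc-6554), sequenced and called against an input library of Caco2 chromatin taken without antibody. All 3 libraries come from Caco2, an established line of colorectal adenocarcinoma cells that stands in for the lining of the intestine in many studies, grown in low-glucose DMEM with 10% FBS and given no treatment that the labels name. Whether the replicates are separate cultures is not given in the labels, so their spread may be technical. Peak lists hold no expression values by which to check the cell type. Replicate 1 held 26183147 tags (aligned read ends) and replicate 2 held 15756702.

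Epithelial cells are joined by a belt of adherens junctions, in which cadherins bind each other across the gap, and above it by tight junctions. In tight junctions, claudins and occludin form strands that seal the gap or let chosen ions pass, JAM proteins help to set the position of the strands, and ZO proteins tie them to the actin skeleton. In the gut this seal separates the lumen from the tissue. FOXA2 is a forkhead transcription factor that can bind DNA in closed chromatin and is active in tissues that derive from the endoderm.

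FOXA2 was called in both replicates in each of the 8 intervals, with 3 to 6 shared sites each. With a score of at least 10 required in each list, F11R held 0 shared sites and TJP1 1. With lists of equal length, a setting chosen after seeing the data, F11R held 2 and TJP1 1. The density over the intervals was 28.5 shared sites per Mb, against 8.59 per Mb over the genome (counted on the 2833 Mb-wide windows in which either list has a peak), a ratio of 3.32. EPCAM had the densest interval, with 4.20 shared sites per 100 kb, followed by F11R with 3.94. TJP1 had the sparsest, with 1.79. This order depends on the flanks. With 25 kb each side, CLDN1 was densest with 4.41 per 100 kb, against 3.23 for EPCAM and 2.60 for F11R. Over the gene spans alone, F11R had 7.41 per 100 kb (2 sites) and CDH1 5.05, against 2.33 for EPCAM, 1.63 for TJP1 and 1.52 for OCLN. CLDN3 and CLDN4 had 6.15, but their span runs between the outer ends of the pair and is mostly DNA between the genes. Each interval was also set beside all windows of its own length laid end to end over the stretches of the genome that hold peaks. The 6 sites of EPCAM or more were found in 3.59% of such windows, the 5 of F11R in 4.88%, the 5 of CLDN3 and CLDN4 in 7.90%, and the 5 of OCLN in 8.25%. The 5 sites of CDH17 or more were found in 10.4% of windows, the 5 of CDH1 in 11.2%, the 3 of CLDN1 in 13.8% and the 4 of TJP1 in 19.6%. The genome density and the windows both include gene-poor stretches and were not matched to the intervals. Intervals around other genes were not counted, and the genes were chosen with earlier results of these data known. The ratio and these shares thus describe the intervals and test nothing.

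**Figure D1:**
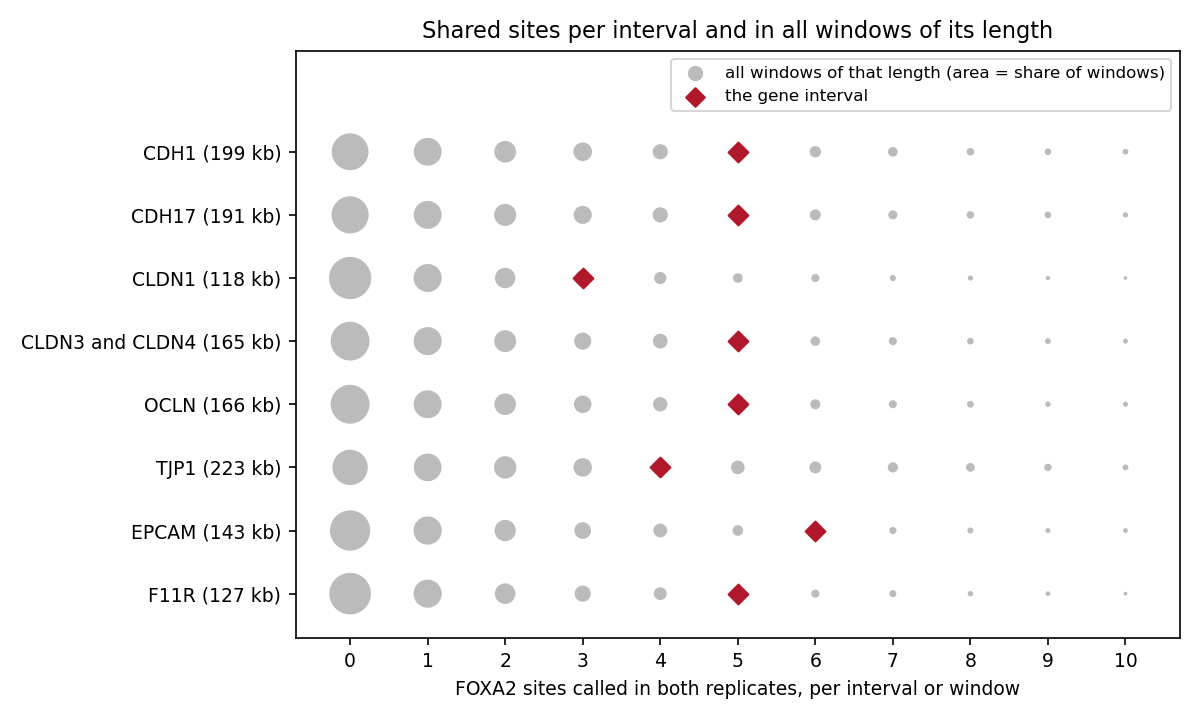
Number of shared FOXA2 sites in each of the 8 gene intervals (red diamonds) and in all genome windows of the same length (grey circles, whose area is the share of windows with that number; windows with more than 10 are not drawn). The intervals hold 3 to 6 sites, while windows of the same length most often hold 0.

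A score counts the tags of a peak, scaled to 10000000 tags per library, and is given as normalised tags. Each unit of score equals 2.62 tags of replicate 1 or 1.58 tags of replicate 2. The shared sites of the intervals had mean scores with a median of 16 and quartiles of 9 and 27.5, beside a median of 14.5 and quartiles of 9.5 and 24.5 for all shared sites. The intervals thus held more sites per length, while the middle of their scores lay close to that of the whole series. Of the 38 sites, 4 had a mean score of at least 50, or 10.5%, against 8.09% of all shared sites. These 4 lay in the CLDN1, CDH1, and CLDN3 and CLDN4 intervals.

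**Figure D2:**
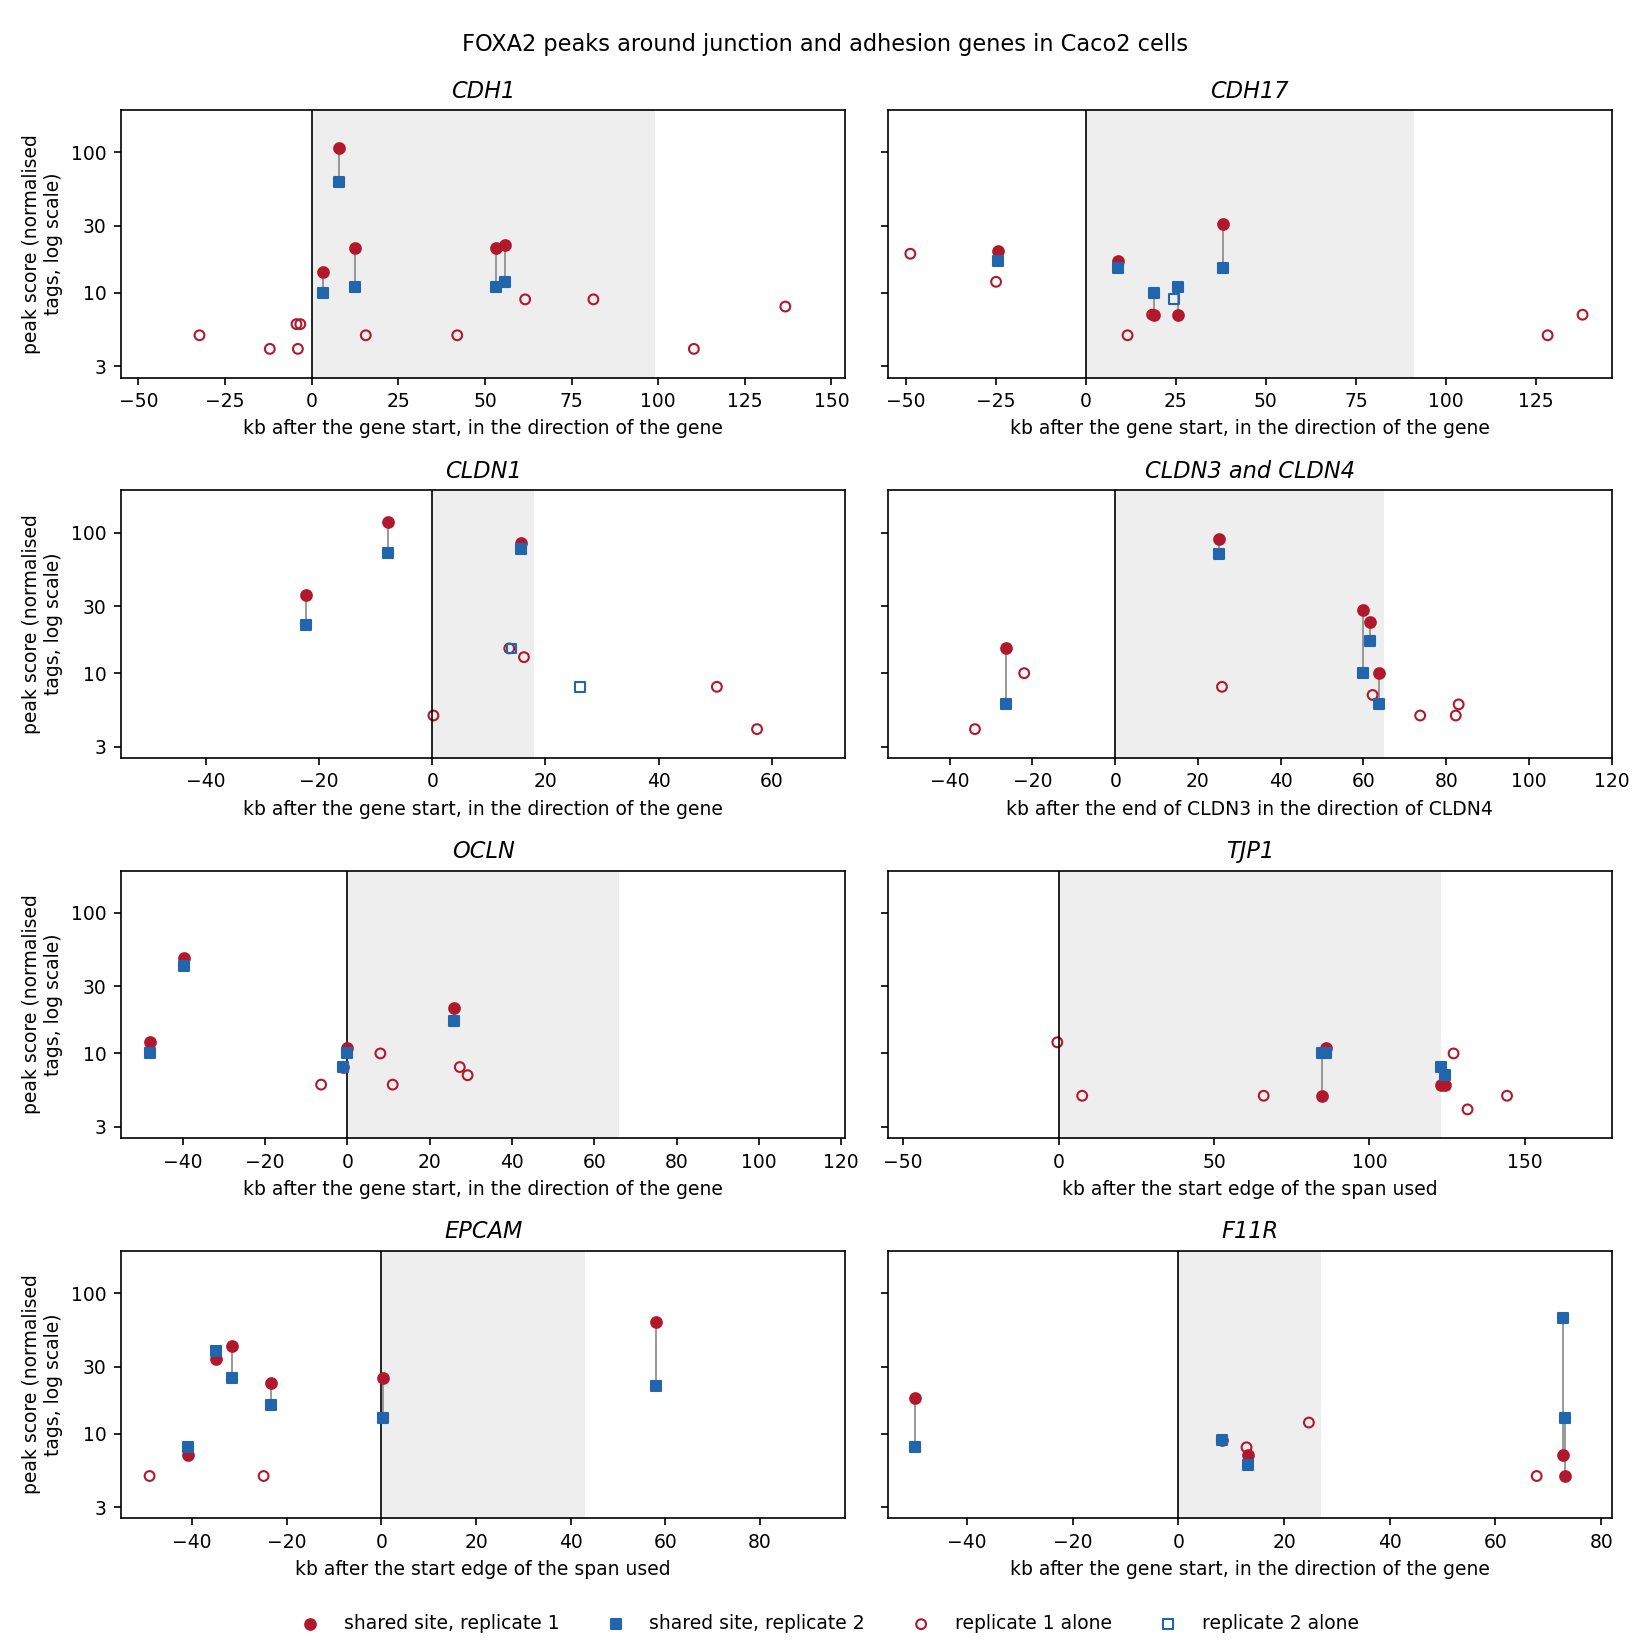
Score of each FOXA2 peak (vertical axis, normalised tags, log scale) against its distance in kb from the start edge of the gene span (horizontal axis, read in the direction of the gene; for CLDN3 and CLDN4 from the end of CLDN3). Filled red circles and blue squares joined by a line are the replicate 1 and replicate 2 scores of a shared site. Open symbols are peaks of a single replicate. The grey band is the gene span, which for CLDN3 and CLDN4 is mostly the DNA between the genes. The CDH1 sites all lie in the gene, those of OCLN mostly before it, and the TJP1 sites stay low.

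CDH1 encodes E-cadherin, the adhesion molecule of the adherens junction. All 5 of its shared sites lay within the gene. The strongest, on chromosome 16 at 68778790 to 68778912, scored 107 in replicate 1 and 62 in replicate 2, a mean of 84.5 ± 31.8 (SD, n = 2). It lay 7.9 kb after the gene start, and 2.48% of all shared sites scored higher. This single site carried 57.8% of the summed score of the CDH1 shared sites in replicate 1 and 58.5% in replicate 2.

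Of the other CDH1 sites, the one at 3.2 kb after the start scored 14 in replicate 1 and 10 in replicate 2. The site at 12.4 kb scored 21 in replicate 1 and 11 in replicate 2. The remaining pair, at 53.3 and 55.8 kb, lay 2.49 kb apart and scored 21 and 22 in replicate 1 against 11 and 12 in replicate 2. All 5 sites scored higher in replicate 1, with log2 ratios of 0.49 to 0.93, where the median of all shared sites was 0.26. The CDH1 interval also held 11 peaks of replicate 1 alone, the most of the 8, with scores of 4 to 9, and 3 of these lay 3.3 to 4.4 kb before the gene start. RefSeq places CDH3, which encodes P-cadherin, as the next protein-coding gene on that side.

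CDH17 encodes liver-intestine cadherin, a cadherin of the intestinal epithelium that lacks the long cytoplasmic tail of E-cadherin. Its 5 shared sites were moderate or weak. The strongest, on chromosome 8 at 95191836 to 95191958 and 38.1 kb after the gene start, scored 31 in replicate 1 and 15 in replicate 2 (mean 23 ± 11.3, n = 2). The next, 24.5 kb before the start, scored 20 in replicate 1 and 17 in replicate 2 (18.5 ± 2.12), and the site 8.9 kb after the start scored 17 in replicate 1 and 15 in replicate 2 (16 ± 1.41).

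The other 2 CDH17 sites, at 19 and 25.5 kb after the start, both scored 7 in replicate 1, against 10 and 11 in replicate 2. The sites in the gene thus did not keep a common order of the replicates. The interval held 6 peaks of replicate 1 alone, among them the highest of these in any interval, a score of 19 at 48.7 kb before the start. It also held a peak of replicate 2 alone, which scored 9.

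CLDN1 encodes claudin-1, a sealing claudin. Its interval had the fewest shared sites, 3, and the highest scores. The strongest site of all 38 lay 7.8 kb before the gene start, on chromosome 3 at 190048748 to 190048870. It scored 118 in replicate 1 and 72 in replicate 2, a mean of 95 ± 32.5 (SD, n = 2), which stands for about 309 tags of replicate 1 and 113 of replicate 2. Of all shared sites, 1.86% scored higher.

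The second CLDN1 site, at 190025193 to 190025315 and 15.7 kb into the gene near its end, scored 84 in replicate 1 and 77 in replicate 2 (80.5 ± 4.95). Its log2 ratio of 0.13 made it the most even of the 4 strong sites. The third, 22.3 kb before the start, scored 36 in replicate 1 and 22 in replicate 2 (29 ± 9.90). The median mean score of the CLDN1 sites was 80.5, the highest of the 8 intervals. RefSeq lists CLDN16, another claudin gene, as overlapping CLDN1, and whether the sites before the start lie in CLDN16 was not determined.

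Inside CLDN1 each list held a further peak with a score of 15, on chromosome 3 at 190027332 to 190027454 in replicate 1 and at 190026906 to 190027056 in replicate 2. Their centres lay 412 bp apart, so they did not overlap and neither counts as shared. A peak of replicate 1 alone with a score of 5 lay 0.2 kb inside the edge taken as the CLDN1 start. Edges are in whole kb, so its side of the start was not determined.

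CLDN3 and CLDN4 encode claudins of the gut epithelium that also serve as receptors for Clostridium perfringens enterotoxin. They are read away from each other, with their starts facing. On GRCh38.p14 the 250 bases before the start are chr7:73770271-73770520 for CLDN3 and chr7:73830746-73830995 for CLDN4. Most of the 65 kb between the outer ends thus lies between the genes, and both genes are short. The strongest site of their interval lay between the outer ends of the gene pair, 25 kb from the end of CLDN3 and 40 kb from the end of CLDN4, on chromosome 7 at 73207964 to 73208086. It scored 90 in replicate 1 and 70 in replicate 2 (80 ± 14.1, n = 2), and 2.83% of all shared sites scored higher. It carried 54.2% of the summed score of the interval's shared sites in replicate 1 and 64.2% in replicate 2.

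A group of 3 weaker shared sites lay at CLDN4, 5.2, 3.5 and 1.3 kb before the edge taken as the end of that gene. As CLDN4 is short, the group also lay within a few kb of its start. On which side of the start each site lies was not determined. The 3 sites scored 28, 23 and 10 in replicate 1 against 10, 17 and 6 in replicate 2, and stood 1.68 and 2.21 kb apart. The first of them had a log2 ratio of 1.49. The fifth site, 26.3 kb beyond the end of CLDN3, scored 15 in replicate 1 and 6 in replicate 2, a log2 ratio of 1.32. RefSeq lists ABHD11 as the next protein-coding gene there. All 5 sites of this interval scored higher in replicate 1.

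OCLN encodes occludin, a membrane protein of the tight junction strands. Of its 5 shared sites, 4 lay before the edge taken as the gene start. The strongest, 39.7 kb before it on chromosome 5 at 68748267 to 68748389, scored 48 in replicate 1 and 42 in replicate 2 (45 ± 4.24, n = 2). Another site, 47.9 kb before the start, scored 12 in replicate 1 and 10 in replicate 2. On that side RefSeq lists MARVELD2, which encodes tricellulin, the occludin relative found at the corners where cells meet.

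A pair of weak OCLN sites lay near the gene start. The site 0.1 kb before the edge, at 68787862 to 68787984, scored 11 in replicate 1 and 10 in replicate 2. The site 1.0 kb before the edge scored 8 in each. Edges are in whole kb, so the side of the start on which this pair lies was not determined. The fifth site, 25.8 kb into the gene, scored 21 in replicate 1 and 17 in replicate 2. The log2 ratios of the 5 sites ran from 0.00 to 0.30, the narrowest range of the intervals.

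TJP1 encodes ZO-1, the scaffold that ties the tight junction strands to actin. It had the weakest sites of the list. Its 4 shared sites had mean scores of 6.5 to 10.5, all below the median of all shared sites, and came in pairs. The pair 86.0 and 84.7 kb after the start edge scored 11 and 5 in replicate 1 against 10 and 10 in replicate 2. The pair at the end edge of the span, 0.1 and 1.3 kb beyond it, scored 6 and 6 in replicate 1 against 8 and 7 in replicate 2.

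At the TJP1 start edge itself, 0.4 kb before it, lay a peak of replicate 1 alone with a score of 12. The RefSeq TJP1 gene is longer than the span used here, so that edge is not the only start of the gene. Of the 4 shared sites, 3 scored higher in replicate 2, unlike most sites of the list.

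F11R encodes JAM-A, an immunoglobulin-like adhesion protein of the tight junction. Its 5 shared sites included the site at which the replicates differed most. On chromosome 1 at 160919289 to 160919411 the score was 7 in replicate 1 and 67 in replicate 2, which stands for about 18 tags of replicate 1 and 106 of replicate 2. The log2 ratio was -3.26, and 2 of the 24345 shared sites had a lower one. A second site 408 bp away scored 5 in replicate 1 and 13 in replicate 2, with a log2 ratio of -1.38. These adjoining sites lay 45.7 and 46.1 kb beyond the end of F11R, on the side where RefSeq lists ITLN2, an intelectin gene.

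The F11R sites inside the gene were weak and even. At 13.2 kb after the start the scores were 7 in replicate 1 and 6 in replicate 2, and at 8.2 kb they were 9 in each. The fifth site, 49.8 kb before the start, scored 18 in replicate 1 and 8 in replicate 2. Without the adjoining pair, the F11R interval held 3 shared sites, with mean scores of 6.5 to 13.

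EPCAM encodes the epithelial cell adhesion molecule, a marker of epithelial cells that binds claudins. Its interval had the most shared sites, 6. The strongest, on chromosome 2 at 47629969 to 47630091, scored 62 in replicate 1 and 22 in replicate 2 (42 ± 28.3, n = 2). Its log2 ratio of 1.49 was the highest of the 38 sites, level with that of the first site of the CLDN4 group. It lay 15.0 kb beyond the right edge of the gene span.

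The next EPCAM sites lay together before the left edge of the gene span. The site at 47537035 to 47537157 scored 34 in replicate 1 and 39 in replicate 2 (36.5 ± 3.54). The site at 47540348 to 47540470, 3.31 kb further on, scored 42 in replicate 1 and 25 in replicate 2 (33.5 ± 12.0). The site at 47572370 to 47572492, which scored 25 in replicate 1 and 13 in replicate 2 (19 ± 8.49), lay 0.4 kb after the left edge of the span used for EPCAM. The RefSeq gene is shorter than that span, so this edge may not be the start of EPCAM, and no distance from the start is given for these sites. The other 2 shared sites scored 23 and 7 in replicate 1 against 16 and 8 in replicate 2.

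Over all intervals, 16 shared sites lay within the span of a single gene and 4 between the outer ends of CLDN3 and CLDN4. The 50 kb flanks held 18, of which 12 lay before a start edge and 6 beyond an end edge. The gene spans held 3.76 shared sites per 100 kb and the flanks 2.25, with the DNA between CLDN3 and CLDN4 counted as gene span. Of the 38 sites, 26 had another shared site within 10 kb, or 68.4%, against 39.0% of all shared sites. This share is not separate from the higher density of the intervals, and closeness beyond that density was not tested. In the 7 intervals of a single gene, 3 shared sites lay within about 1 kb of the start edge, 2 at OCLN and 1 at the left edge used for EPCAM. The starts of CLDN3 and CLDN4 lie inside their interval and were not located on hg19, so distances from them were not measured. The count near start edges thus leaves out the CLDN4 group, which lies within a few kb of the CLDN4 start. The 4 sites with a mean score of at least 50 lay 7.9 kb after the CDH1 start, 7.8 kb before and 15.7 kb after the CLDN1 start, and between CLDN3 and CLDN4.

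The letters of 3 promoters are shown. OCLN had a shared pair near its start, and CLDN1 had a peak of replicate 1 alone near its own. CLDN4 had a group of shared sites within a few kb of its start, whose exact distance from that start was not measured. RefSeq promoter sequences (GRCh38.p14) were found for 5 of the 9 genes, CLDN1, CLDN3, CLDN4, OCLN and TJP1, and none for CDH1, CDH17, EPCAM and F11R. Each line gives the 250 bases before the gene start on the gene's strand, 5′ to 3′. They are chr5:69492297-69492546 on the plus strand for OCLN, chr3:190322447-190322696 on the minus strand for CLDN1 and chr7:73830746-73830995 on the plus strand for CLDN4. OCLN has 2 entries, of which the first is shown. TJP1, with a peak of replicate 1 alone at its start edge, has 4 entries and is not shown, since that edge was not tied to any of them. The peaks are on hg19, so whether a peak covers these very bases was not determined.
OCLN: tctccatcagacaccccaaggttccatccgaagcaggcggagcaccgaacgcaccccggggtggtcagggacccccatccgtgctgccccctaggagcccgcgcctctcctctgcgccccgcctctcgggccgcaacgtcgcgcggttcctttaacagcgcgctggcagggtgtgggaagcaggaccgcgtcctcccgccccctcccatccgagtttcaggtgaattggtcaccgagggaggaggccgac
CLDN1: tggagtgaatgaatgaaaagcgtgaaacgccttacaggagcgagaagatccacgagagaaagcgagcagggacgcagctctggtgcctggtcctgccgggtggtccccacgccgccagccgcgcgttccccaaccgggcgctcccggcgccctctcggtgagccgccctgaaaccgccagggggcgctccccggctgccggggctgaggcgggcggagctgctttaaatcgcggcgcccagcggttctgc
CLDN4: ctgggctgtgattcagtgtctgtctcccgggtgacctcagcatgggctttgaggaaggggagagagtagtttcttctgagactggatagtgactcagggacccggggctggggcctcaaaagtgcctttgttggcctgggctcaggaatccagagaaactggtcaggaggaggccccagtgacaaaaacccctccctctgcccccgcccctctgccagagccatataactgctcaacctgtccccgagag
These were searched on both strands for the forkhead motif TGTTTAC. The search was widened to 3 related forms of that motif. The first of these was TGTTGAC, the next was TATTTAC, and the last was the form TATTGAC. Capitals would mark a match. None of the 3 holds one, nor does any of the 9 promoter entries of the 5 genes. Among all 35116 RefSeq promoter entries of that length, 2.98% hold TGTTTAC and 8.13% hold at least 1 of the 4 forms. The peaks' own bases were not read, as no genome of their build was used here.

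Nearly all replicate 2 peaks of these intervals were also found in the longer list of replicate 1. In replicate 2, 38 of 41 peaks had a replicate 1 partner, or 92.7% (95% Wilson interval 80.6% to 97.5%, counting error only), against 90.5% of the whole list. In replicate 1, 38 of 83 peaks had a replicate 2 partner, or 45.8% (35.5% to 56.4%), against 38.1% of the whole list. The shares of the whole lists lie inside these intervals, which treat peaks as independent and do not measure the spread between replicates. The distance between the centres of paired peaks had a median of 18.5 bp and a maximum of 83 bp, beside a median of 15 bp in the whole series.

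The score was higher in replicate 1 at 27 of the 38 sites, higher in replicate 2 at 9 and equal at 2. The share higher in replicate 1 was 71.1%, against 63.7% of all shared sites. The median log2 ratio was 0.28 with an SD of 0.87, beside 0.26 and 0.62 for all shared sites. The wider spread rested on the adjoining pair beside F11R: without these 2 sites, a comparison chosen after seeing the data, the SD was 0.59. At 6 sites, or 15.8%, the ratio was more than 2-fold from the median of all shared sites, against 9.77% of all shared sites. With a single library on each side, no test of a replicate difference was possible. The file headers give an approximate immunoprecipitation efficiency of 8.72% for replicate 1 and 5.16% for replicate 2. Peak width also differed between the lists. The part of either in the ratios was not tested.

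**Figure D3:**
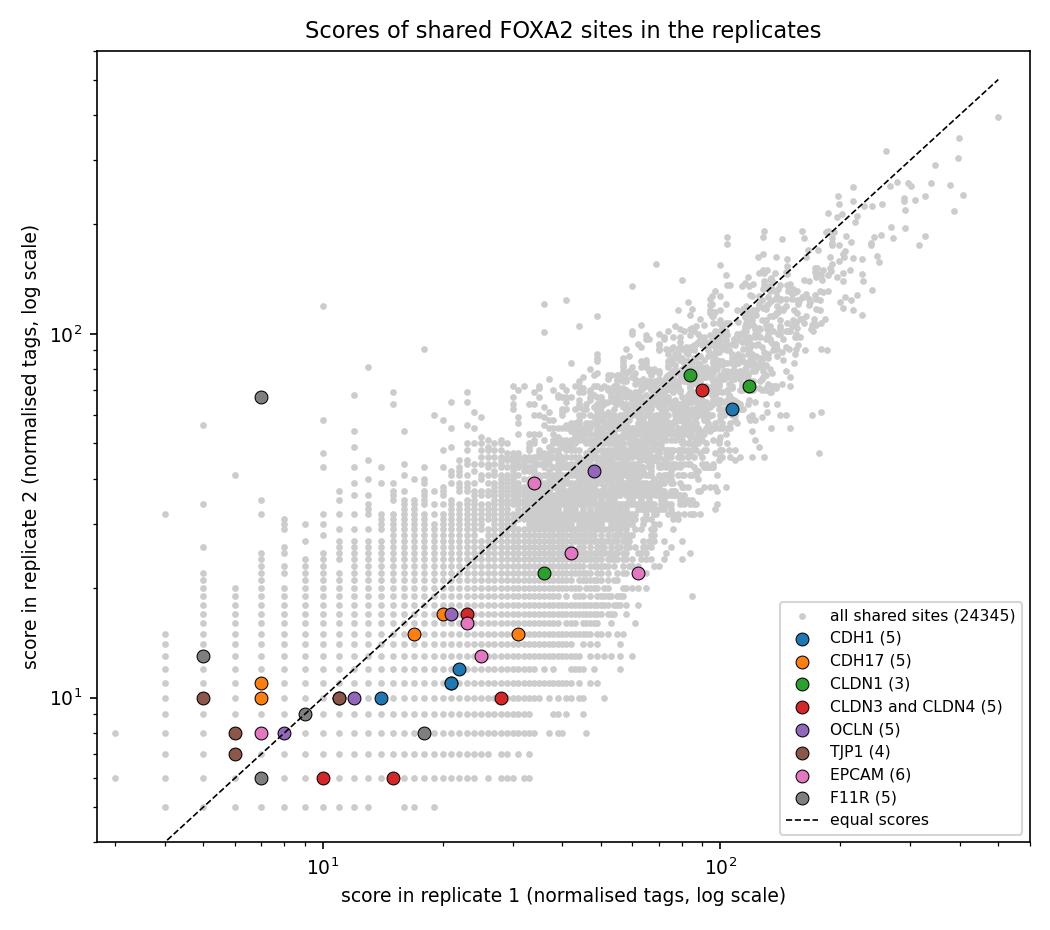
Score of each shared site in replicate 1 (horizontal axis) and replicate 2 (vertical axis), both in normalised tags on log scales, for the 38 sites of the intervals (coloured by interval) and all 24345 shared sites (grey). Most coloured points lie below the dashed line of equal scores, and the F11R point at 7 and 67 stands far above it.

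**Figure D4:**
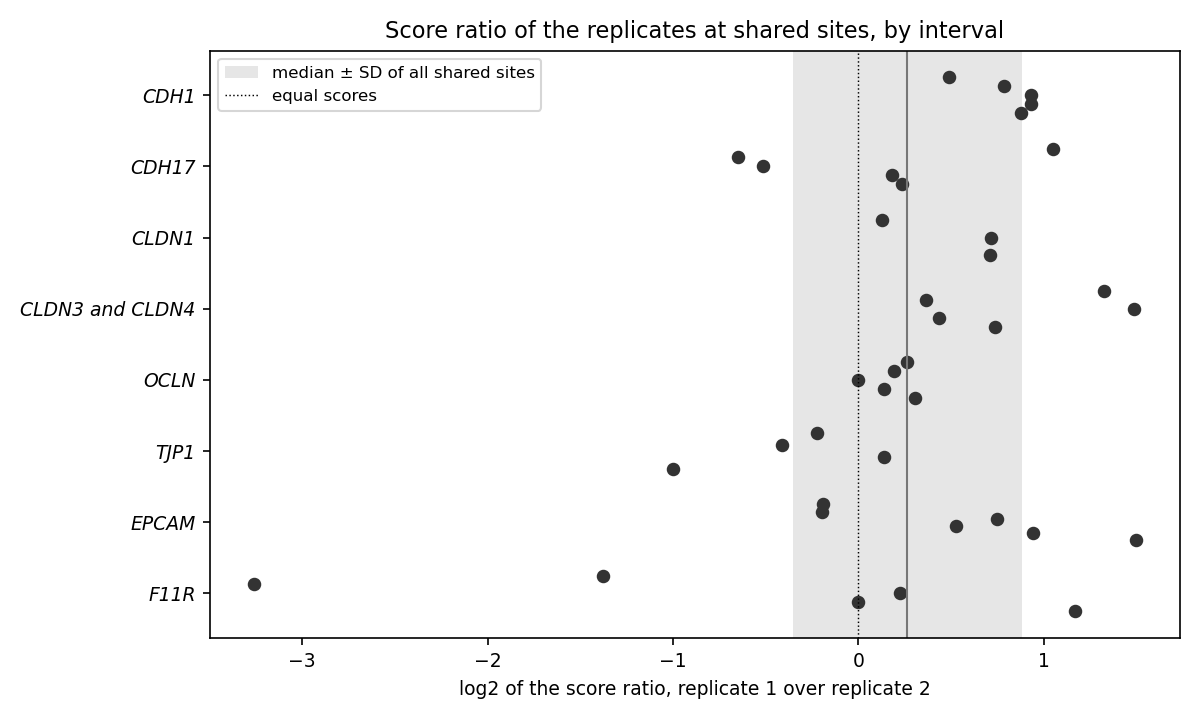
Log2 of the score ratio, replicate 1 over replicate 2, at each shared site (points, in order of position within a gene interval), with the median (0.26) and SD (0.62) of all shared sites as a line and grey band. The CDH1 points all lie at 0.49 or above, the OCLN points between 0.00 and 0.30, and the lowest F11R point at -3.26.

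Peaks of replicate 1 alone numbered 45 and were weak. Their median score was 6, the same as for such peaks in the whole list, and the highest was 19. Of these, 9 scored 10 or more, and 26 lay within 10 kb of a shared site. At the median score a peak rests on about 16 tags of the deeper library, so its absence from the shallower list of replicate 2 does not show that FOXA2 was not bound there. Peaks of replicate 2 alone numbered 3, with scores of 8, 9 and 15.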

How the data were processed

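FOXA2 peak lists of 2 ChIP-seq replicates from Caco2 cells were used; the input library had a part only as the authors' control for calling. The submitters' processing notes name Bowtie 1.0.0, HOMER 1.2 and hg19. Per the file headers, HOMER findPeaks (factor style) called each replicate separately against input, asking for 4 times the input and 4 times the local 10000 bp, a Poisson p of 0.0001 for each, and a false discovery rate of 0.001. The deposited score was read as the authors' tag count of a peak scaled to 10000000 tags and rounded: summed back to tags, it came to 0.450% and 0.196% above the headers' tags in peaks. Replicate 1 peaks span 123 bp and replicate 2 peaks 151 bp; those closer than 244 and 300 bp cannot be called apart.

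Intervals were taken in whole kb, so distances are good to about 1 kb. Exons and introns were not assigned, as no hg19 annotation was used; neighbouring genes are named from RefSeq on GRCh38.p14, by order only, and gene direction comes from the RefSeq promoter table or textbook knowledge. A shared site is a replicate 1 peak with an overlap of at least 1 bp, given at its replicate 1 coordinates (1-based, hg19). All shared sites of intervals with 5 or fewer were named, otherwise the 3 strongest and the nearest to the start; other peaks named were chosen after their values were seen. The members, lists and settings were chosen with earlier results of these data known. Intervals of shares are 95% Wilson intervals. The matching of peaks was tested on simulated lists. Python 3.11.15, numpy 2.4.6, pandas 2.3.3, scipy 1.17.1 and matplotlib 3.10.9 were used.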

Additional observations from a re-analysis of the deposited data

How the results depend on the processing

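The main values were 38 shared sites, 28.5 per Mb, a median mean score of 16 and 92.7% of replicate 2 peaks shared. Settings varied were reciprocal overlap of 50%, 2 limits on the distance between midpoints in place of overlap, and flanks of 25 or 100 kb. They left the count within 1.5 times of 38. The median mean score stayed at 16, and the percentage shared ran from 90.2% to 95.1%. The density ran from 22.5 to 31.5 per Mb. Its limit, 22.3 per Mb, was the SD of the densities of each list alone. That limit takes in the genome's 8.59 per Mb, so staying within it shows little. The number of shared sites was 24 with a score of at least 10 required in each list and 20 over the gene spans alone. The percentage of replicate 2 peaks shared was 80% with that score limit, against 85.7% of the whole list, and 68.3% with lists of equal length, a setting added after seeing the data, against 71.9% of the whole list. Leaving out either replicate gave 41 to 83 peaks, 30.8 to 62.3 per Mb and median scores of 8 to 11, the values that each list alone gives. The ratio of the intervals' density to the whole series' was 3.32 and ran from 2.62 (flanks of 100 kb) to 4.37 (gene spans alone). The gene spans take in the DNA between CLDN3 and CLDN4. Of 88 interval counts recomputed, 25 moved by more than 1.5 times, and the order of the intervals by density changed with the flanks. No paired analysis was possible because there is a single group of immunoprecipitations. Motifs within the peaks and further junction genes were not run, as they need hg19 sequence and annotation. A score below about 10 rests on few tags, which limits the ratios of the weak sites.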
